A study of Mus musculus with 12 samples.

Results

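The genes described here are 30 genes of cholesterol synthesis and of sterol handling in mouse liver, most of them known targets of the transcription factor SREBP2. They were chosen by name: the enzymes of the mevalonate and sterol pathways, SREBP2 with the proteins that control it, and genes that take up, move or esterify sterol. All 30 were matched among the 49398 genes of the deposited count table, and 29 of them are among the 13814 genes with enough reads to be tested. The exception is Npc1l1, the transporter that takes up sterol from the gut and bile, with 8 reads over all livers. The 12 livers came from C57BL/6J wild-type mice of both sexes, aged 9 months at the start, which ate an AIN-93G diet for 8 weeks without added oil (control), with 1% by weight of an oil concentrate of very-long-chain polyunsaturated fatty acids (VLCPUFA), or with 5% of it. Each diet has 4 livers, 2 from females and 2 from males, all taken after a 5 hour fast. The control females were mice N979 and N980 and the control males N967 and N968. The 1% females were N983 and N984, the 1% males N971 and N972, the 5% females N987 and N988, and the 5% males N975 and N976. The labels give no cage, batch or day, so a batch and a diet could not be set apart, and p-values measure only the spread between these animals. Because whole liver was sequenced, fewer cells of a type and less RNA per cell cannot be told apart.

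Cholesterol is built from acetyl-CoA through mevalonate, isoprenoid pyrophosphates, squalene and lanosterol. When the membrane of the endoplasmic reticulum is poor in sterol, the escort protein SCAP carries SREBP2 to the Golgi, where it is cut and released as a transcription factor for nearly all of these enzymes. When sterol is plentiful, INSIG1 or INSIG2 binds SCAP and keeps SREBP2 in place. Insig1 is itself a target of SREBP proteins, whereas Insig2 has alternative first exons, and in mouse liver one of its transcripts is known to be lowered by insulin and to follow the daily clock.

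Levels below are CPM, read counts scaled to library size with TMM factors, differences between diets are log2 fold changes with their standard error, and adjusted p-values are those of edgeR's quasi-likelihood test over all 13814 genes, with a threshold of 0.05. Library totals ran from 5291385 to 15674130 estimated reads. The 7 hepatocyte markers found in the table summed to between 101853 and 172654 CPM in controls, between 96138 and 115356 CPM in 1% livers and between 88416 and 106980 CPM in 5% livers. Albumin (Alb) alone made up most of each sum. It lay between 78722 and 146145 CPM in controls, 73804 and 93279 CPM in 1% livers, and 70315 and 88170 CPM in 5% livers. Kupffer cell markers summed to between 402 and 778 CPM in controls, between 201 and 457 CPM in 1% livers and between 188 and 510.5 CPM in 5% livers. Sinusoidal endothelial markers summed to between 213.6 and 353.8 CPM in controls, between 263.8 and 387 CPM in 1% livers and between 185 and 259.9 CPM in 5% livers, so that the 5% livers lay below the 1% livers. The part of these sums in the results was not tested. No marker of hepatocytes, Kupffer, endothelial or stellate cells, cholangiocytes, lymphocytes or neutrophils passed the threshold in a diet comparison in edgeR, and each marker found had more than 3 reads over all livers.

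The control females lay at opposite ends of this gene group. N980 had the highest level of the 4 controls for 18 of the 19 enzymes, and N979 had the lowest for 15 of them. The ratio of N980 to N979 had a median of 3.83 over the 19 enzymes and ranged from 0.823 for Ggps1 to 19.4 for Sqle. The control males differed from each other by at most 1.57-fold in any enzyme. The level averaged over the 19 enzymes, on a log2 scale relative to the mean of the 12 livers, was 1.27 in N980, -0.50 in N979, and 0.25 and 0.30 in the control males. In the 1% livers this average was -0.28, -1.11, -0.67 and -0.39, all below the mean of the 12 livers. In the 5% livers it was -0.21 and -0.20 in the females, and 0.72 and 0.81 in the males. N979, which was also the shallowest library, thus lay among the 1% livers. Values of a diet comparison without one or both of these females are given below for many of the members and counts. Comparisons within females have none, since each control female is then 1 of 2.

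**Figure D1:**
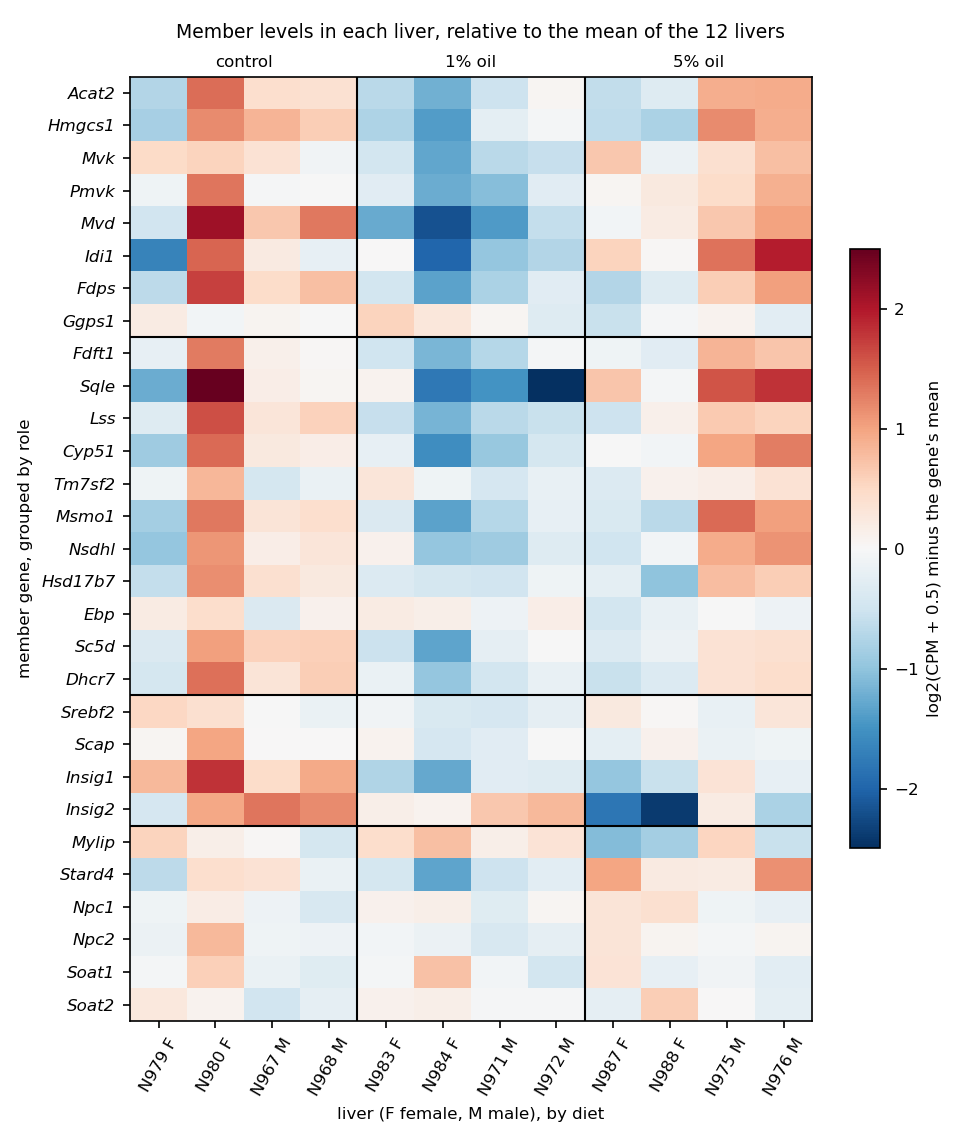
Level of each of the 29 tested members (rows, grouped by role) in each liver (columns, by diet and sex), as log2(CPM + 0.5) minus the mean of that gene over the 12 livers. Blue columns mark the 1% livers and control female N979 for most enzymes, red columns mark control female N980 and both 5% males.

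The regulators of SREBP2 held the members that fell at 5% oil. Insig2 and Insig1, which retain SCAP in the endoplasmic reticulum, were both lower in 5% livers than in controls and passed the threshold, while SREBP2 itself (Srebf2) and Scap did not. Of all genes tested 1.27% passed in this direction and 1.19% in the other, where no member passed.

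Insig2 stood at 183.8 and 482 CPM in control females, and at 630 and 563 CPM in control males. In the 1% livers it was 273 and 264 CPM in females and 394 and 434 CPM in males. In the 5% livers it was 70.8 and 46.8 CPM in females and 286 and 142 CPM in males. Females were below males within each diet, controls included. Among the 5% livers, male N975 alone overlapped the controls, lying above N979. The mean was 136.5 ± 107.5 CPM at 5% oil, against 465 ± 197 CPM in controls (SD, n = 4 each). The log2 fold change was -1.95 ± 0.35, with an adjusted p of 0.0123 in edgeR. The call held when any of the 12 livers was left out, with log2 fold changes between -2.34 and -1.59 and adjusted p-values up to 0.0494. It was lost with no sex term in the model (edgeR adjusted p = 0.152) and without both control females (edgeR adjusted p = 0.0567, log2 fold change -1.76). Dbp, a transcription factor whose liver mRNA rises and falls with the time of day, was chosen after its values were seen. Dbp lay between 0.157 and 1.10 CPM in controls, between 1.62 and 19.99 CPM in 1% livers and between 12.7 and 39.98 CPM in 5% livers. Its part in the Insig2 result was not tested.

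Insig1 stood at 543 and 1082 CPM in control females, and at 425 and 597 CPM in control males. In 1% livers it was 184 and 128 CPM in females, and 256 and 249 CPM in males. In 5% livers it was 159 and 210.1 CPM in females, and 395 and 270.3 CPM in males. Every 5% liver and every 1% liver lay below every control. The 5% diet averaged 259 ± 102 CPM, against 662 ± 289.5 CPM in controls (SD, n = 4 each). The log2 fold change was -1.43 ± 0.34, with an adjusted p of 0.0463 in edgeR. Insig1 was the only member whose 5% and control livers did not overlap in the lower direction, where 3% of all genes did the same. The adjusted p stayed under the threshold only without N967 (0.0214) or N975, and was between 0.0514 and 0.148 without any other liver. Without N980 the log2 fold change was -0.996, and without both control females it was -0.67 (edgeR adjusted p = 0.461). At 1% oil, Insig1 averaged 204 ± 60.4 CPM and its log2 fold change against control was -1.76 ± 0.34, which missed the threshold (edgeR adjusted p = 0.0558). It passed without N967 (0.0380), N975 (0.0430), N979 (0.0478), N987 (0.0482) or N980 (0.0498). Insig2 at 1% oil was at -0.40 ± 0.33 (edgeR adjusted p = 0.690).

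Scap was at 56.7 and 73.1 CPM in 5% females, 59.7 and 62.5 CPM in 5% males, 69.6 and 134 CPM in control females, and 67.9 CPM in both control males. It averaged 63.0 ± 7.12 CPM in 5% livers, against 84.8 ± 32.8 CPM in controls, and the control mean rests on N980, since the other controls lay within the range of the 5% livers. The 1% livers were at 71.4, 49.97, 55.6 and 66.8 CPM. Srebf2 averaged 33.4 ± 4.98 CPM in 5% livers, against 36.0 ± 8.19 CPM in controls. It averaged 25.6 ± 2.79 CPM in 1% livers, with a log2 fold change against control of -0.47 ± 0.17 (edgeR adjusted p = 0.312).

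**Figure D2:**
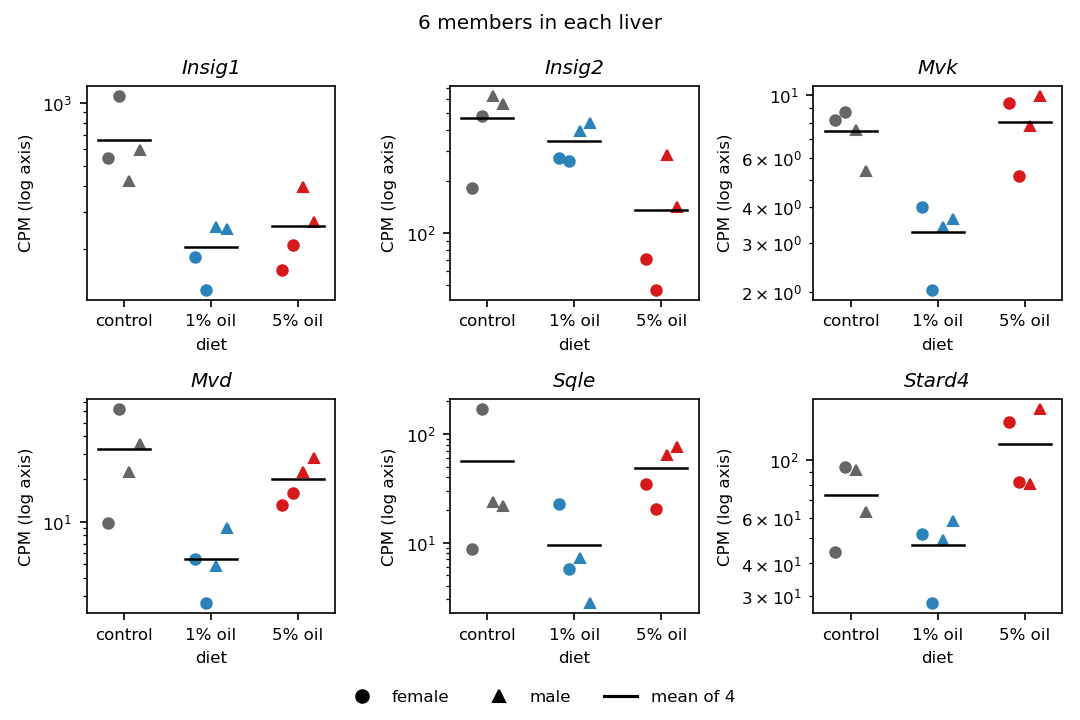
CPM on a log axis of Insig1, Insig2, Mvk, Mvd, Sqle and Stard4 in each liver, by diet, with circles for females, triangles for males and a line at the mean of the 4 livers. The 4 Insig1 values at each oil dose lie below all controls, Insig2 is lowest in the 5% females, and Mvk and Mvd are lower in every 1% liver than in every other liver.

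The Insig2 gene has several transcription starts, and the transcript table divides its reads between them. Insig2-201 held between 78.0% and 90.9% of the reads of the gene in each liver, and Insig2-202, which starts farther upstream, held between 1.40% and 19.9%. Another protein-coding transcript, Insig2-214, held between 0.27% and 12.9%, and more than Insig2-202 in N979, N983, N984 and N988. Insig2-201 and Insig2-202 also differ at their other end, so these shares do not measure use of the starts alone. The stretches before both starts and before the start of Insig1 are shown because these genes carry the calls at 5% oil. They are the 150 bases before the RefSeq start (build GRCm38.p6, 5′ to 3′ on the strand of the gene), or for Insig1 the 150 bases that end 50 bases before it, ahead of an earlier annotated start. Capitals mark the NF-Y box CCAAT or the E-box CACGTG, on either strand.
Insig2-202 (chr1:121332590-121332739, minus strand): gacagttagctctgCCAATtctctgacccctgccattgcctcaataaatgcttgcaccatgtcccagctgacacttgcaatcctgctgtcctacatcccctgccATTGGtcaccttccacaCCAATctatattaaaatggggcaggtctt
Insig2-201 (chr1:121328025-121328174, minus strand): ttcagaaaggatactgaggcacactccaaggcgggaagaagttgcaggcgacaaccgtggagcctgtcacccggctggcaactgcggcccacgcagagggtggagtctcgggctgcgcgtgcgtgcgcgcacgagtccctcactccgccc
Insig1 (chr5:28071213-28071362, plus strand): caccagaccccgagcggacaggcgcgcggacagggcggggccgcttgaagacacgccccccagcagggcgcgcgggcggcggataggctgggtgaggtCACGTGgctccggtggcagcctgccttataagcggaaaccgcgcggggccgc
The stretch before Insig2-202 held 3 NF-Y boxes, that before Insig2-201 held none of the motifs searched, and that of Insig1 held an E-box. Insig1 also has an NF-Y box at position -216 from its RefSeq start, outside the printed stretch.

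None of the 19 enzymes passed the threshold at 5% oil against control in edgeR, DESeq2 or limma voom, and none had an unadjusted p under 0.05 in edgeR, where 14.6% of all genes did. Of these enzymes 12 lay below 0 and 7 above it, with a median log2 fold change of -0.24, against 0.01 over all genes. The values ranged from -0.78 ± 0.48 for Mvd, which makes isopentenyl pyrophosphate, to 0.75 ± 0.68 for Idi1, which isomerises it. Without N980 the median became 0.24, with 2 enzymes at an unadjusted p under 0.05 and higher, where 6.66% of all genes were, and the Mvd value 0.063. Without N979 it was -0.28, with 3 enzymes at an unadjusted p under 0.05 and lower, where 7.54% of all genes were.

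At 1% oil 18 of the 19 enzymes lay below 0 against control, but none passed the threshold. In edgeR 0 of 29 members passed, where 0.224% of all genes did in either direction and 0.0869% in the lower one. DESeq2 called 6 members lower, where it called 1.09% of all genes lower, and limma voom called 0. In edgeR 16 members had an unadjusted p under 0.05 and were lower, and 0 were higher; the share of all genes that were lower at that level was 6.55%. These were 6 of 8 enzymes of the mevalonate steps, 7 of 11 enzymes between squalene and cholesterol, 2 of 4 regulators and 1 of 6 tested genes of uptake and transfer. The median log2 fold change was -1.17 over the mevalonate enzymes, -1.05 over the sterol enzymes, -0.46 over the regulators and 0.07 over the uptake genes, against 0.0006 over all genes. In 5 members (Mvk, Pmvk, Mvd, Lss and Insig1) every 1% liver lay below every control, as in 2.04% of all genes. Lss overlapped when only its protein-coding transcripts were counted.

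Among the mevalonate enzymes, Mvd stood at 9.79 and 62.1 CPM in control females, and at 22.4 and 35.1 CPM in control males. In 1% livers it was 5.46 and 2.65 CPM in females and 4.87 and 8.97 CPM in males. In 5% livers it was 13.1 and 16.1 CPM in females and 22.5 and 28.3 CPM in males. Its level at 1% oil was the lowest of the diets, with no overlap with either. The log2 fold change of 1% against control was -2.61 ± 0.52 (edgeR adjusted p = 0.0729), and the adjusted p fell under the threshold without N980 (0.0375, log2 fold change -1.78) or N979 (0.0127). Mevalonate kinase, Mvk, stood at 8.16 and 8.70 CPM in control females, and at 7.52 and 5.37 CPM in control males. It was 4.004 and 2.04 CPM in 1% females, 3.42 and 3.65 CPM in 1% males, 9.37 and 5.16 CPM in 5% females, and 7.76 and 9.96 CPM in 5% males. N980 and N979 differed by 1.07-fold in this gene. The log2 fold change of Mvk at 1% against control was -1.16 ± 0.28 (edgeR adjusted p = 0.115).

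Pmvk, the next kinase of the pathway, averaged 23.1 ± 7.97 CPM in 1% livers, against 49.6 ± 28.6 CPM in controls. Its controls lay at 33.9, 92.5, 35.9 and 36.2 CPM and its 1% livers at 29.9, 15.1, 17.2 and 29.98 CPM. The 5% livers were at 37.9, 43.2, 50.1 and 68.1 CPM. The Pmvk change at 1% oil was -1.10 ± 0.36 on the log2 scale, -0.56 without N980 and -1.24 without N979. Hmgcs1, the synthase that makes hydroxymethylglutaryl-CoA, averaged 116.5 ± 44.1 CPM in 1% livers, against 260 ± 121 CPM in controls, and its log2 fold change was -1.27 ± 0.39. Acat2, the thiolase of the first step, was at -1.18 ± 0.43 and Fdps, which joins the isoprenoid units to farnesyl pyrophosphate, at -1.52 ± 0.48. Their adjusted p-values in edgeR were 0.248 for Hmgcs1, 0.336 for Acat2 and 0.270 for Fdps. Without N980 these changes were -0.57 for Hmgcs1, -0.39 for Acat2 and -0.68 for Fdps, and without N979 they were -1.48, -1.39 and -1.77. Idi1 averaged 45.6 ± 24.3 CPM in 1% livers, against 98.1 ± 80.7 CPM in controls, and its change was -1.12 on the log2 scale but -0.030 without N980. Ggps1, whose product feeds protein prenylation rather than sterol, was the one enzyme above 0, at 0.13 ± 0.22.

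Among the enzymes between squalene and cholesterol, Lss, which closes squalene epoxide to lanosterol, was read at 39.9, 153, 61.3 and 75.1 CPM in controls. In 1% livers it was 33.2 and 21.9 CPM in females and 31.2 and 33.5 CPM in males. In 5% livers it was 34.7 and 54.5 CPM in females and 78.5 and 74.0 CPM in males. The log2 fold change at 1% oil was -1.48 ± 0.38 (edgeR adjusted p = 0.153). Sc5d, a late desaturase, was read at 355, 926, 678 and 693 CPM in controls, 313, 181.9, 389 and 453 CPM in 1% livers, and 362, 411, 588 and 601 CPM in 5% livers. Its log2 fold change at 1% oil was -1.05 ± 0.27 (edgeR adjusted p = 0.142). Without N979 both Lss and Sc5d passed the threshold (edgeR adjusted p = 0.0465 and 0.0351). Without N980 neither did, at -0.83 for Lss (edgeR adjusted p = 0.237) and -0.64 for Sc5d (edgeR adjusted p = 0.347). N979 was the lowest control in both genes, and in Sc5d it lay within the range of the 1% livers.

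Squalene epoxidase, Sqle, had the widest spread in controls, at 8.70 and 169 CPM in females and 23.8 and 21.9 CPM in males. It was 22.5 and 5.78 CPM in 1% females, 7.17 and 2.76 CPM in 1% males, 34.5 and 20.6 CPM in 5% females, and 63.9 and 75.5 CPM in 5% males. Its log2 fold change at 1% oil was -2.48 ± 0.96 (edgeR adjusted p = 0.399) and became -0.72 without N980. Fdft1 (squalene synthase), Cyp51 (lanosterol demethylase), Msmo1 (sterol methyl oxidase) and Dhcr7 (the reductase of the last step from dehydrocholesterol) had log2 fold changes between -1.19 and -1.05. Without N980 these lay between -0.47 and -0.34, and without N979 between -1.43 and -1.19. Nsdhl and Hsd17b7, which act with Msmo1, averaged 45.6 ± 16.7 and 23.5 ± 2.94 CPM in 1% livers, against 78.3 ± 42.5 and 40.3 ± 19.6 CPM in controls, and without N980 their log2 fold changes were -0.11 and -0.20, against -0.78 and -0.81 with it. The reductase Tm7sf2 averaged 80.4 ± 17.7 CPM in 1% livers, against 92.3 ± 40.7 CPM in controls, and the isomerase Ebp 293 ± 30.4 CPM in 1% livers, against 297 ± 66.2 CPM in controls.

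The count of 13 enzymes with an unadjusted p under 0.05 and lower at 1% oil depended on single livers. It was 7 without N980, where 3.55% of all genes met the same criterion and the median enzyme change was -0.45, and 7 without both control females, where 4.64% did. It was 8 without N984, where 4.05% of all genes did, and 15 without N979, where 10.5% did.

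**Figure D3:**
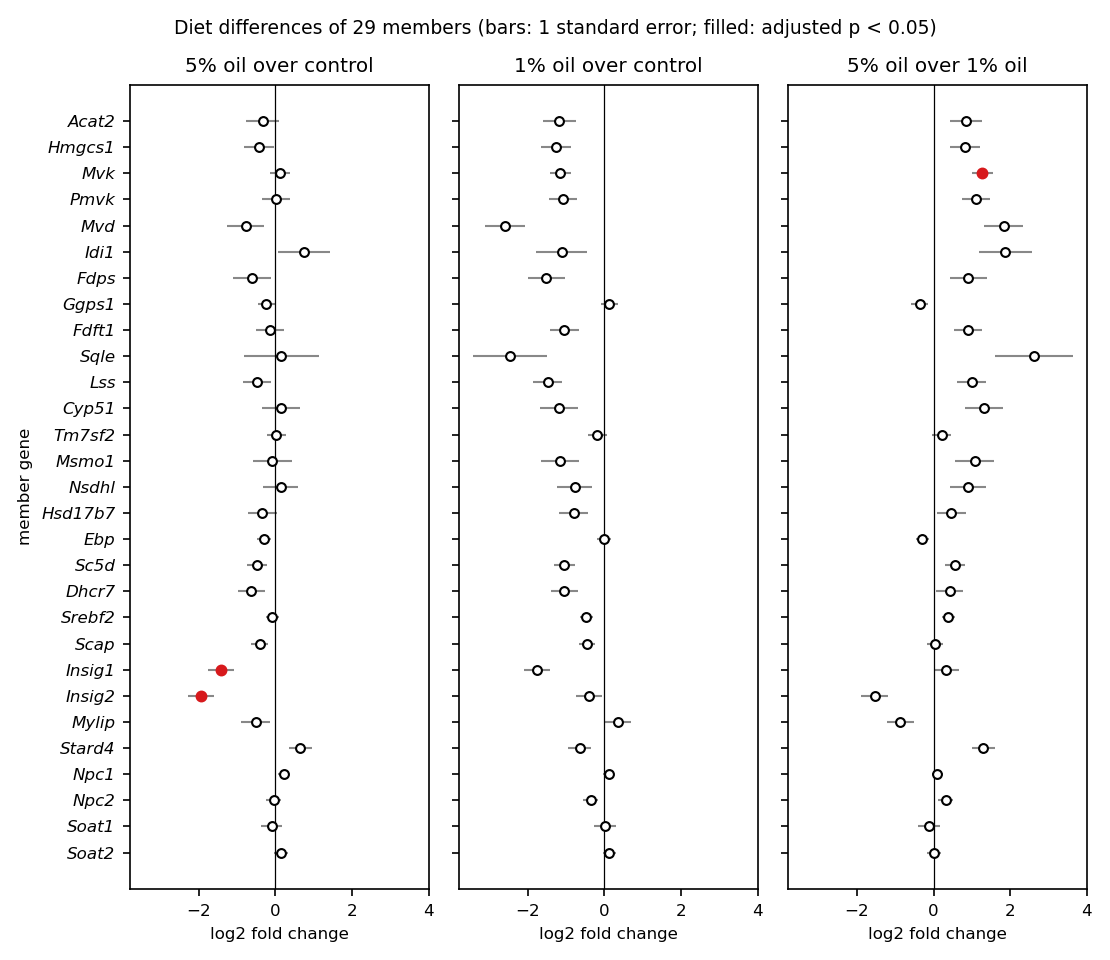
Log2 fold changes of the 29 tested members in 5% against control, 1% against control and 5% against 1% livers, with bars of 1 standard error and filled points for an adjusted p under 0.05. Most enzymes lie left of 0 in the middle panel and right of it in the last, whereas Insig1 lies left of 0 at both doses.

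In 5% against 1% livers, 17 of the 19 enzymes lay above 0 and 1 passed the threshold. These values share the 1% livers with the comparison above and are not independent of it. Mvk rose by 1.28 ± 0.27 on the log2 scale (edgeR adjusted p = 0.0424) and averaged 8.06 ± 2.15 CPM at 5% oil, against 3.28 ± 0.86 CPM at 1% oil (SD, n = 4 each). It was the only one of 29 members to pass in that direction, where 0.861% of all genes did. All 5% livers lay above all 1% livers. The call held without N980, N979, N988 or N975 (adjusted p between 0.0274 and 0.0401) and was lost without any of the other 8 livers (adjusted p between 0.0534 and 0.151). Mvk rested on few reads, 821 over all livers. In 8 members (Mvk, Pmvk, Mvd, Idi1, Lss, Cyp51, Stard4 and Npc2) every 5% liver lay above every 1% liver, as in 4.13% of all genes. Lss and Npc2 overlapped when only their protein-coding transcripts were counted. With that counting Npc1, whose gene totals overlapped, had every 5% liver above every 1% liver. It lay between 37.2 and 66.3 CPM in 5% livers and between 13.5 and 27.5 CPM in 1% livers. The share of all genes given here is for gene totals.

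The median log2 fold changes were 1.01 for the mevalonate steps and 0.90 for the sterol steps, against 0.004 over all genes. At an unadjusted p under 0.05, 10 members were higher, where 10% of all genes were, and 2 were lower (Insig2 and Mylip), where 7.77% of all genes were. The higher ones were 8 enzymes, Srebf2 and Stard4. The 8 enzymes became 14 without N980, where 11% of all genes were higher at that level. They became 4 without N971 (7.91% of all genes) or N976 (6.73%), and 5 without N984 (7.31%) or N975 (10.8%). Sqle had the largest value, 2.63 ± 1.02, then Idi1 at 1.87 ± 0.69 and Mvd at 1.83 ± 0.51 (edgeR adjusted p = 0.102). Pmvk was at 1.11 ± 0.36 (edgeR adjusted p = 0.146). Insig2 had a value of -1.54 ± 0.35 and did not pass the threshold (edgeR adjusted p = 0.0519), and RLE or upper quartile factors, DESeq2 and limma voom called it. With one liver left out in turn, Insig2 passed in 3 of 12 fits, with an edgeR adjusted p up to 0.176. Of the 14 other fits 11 called it, and the edgeR adjusted p reached 0.280 in the rest.

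Every 1% liver was below every other liver in Mvk and Mvd, and also in Pmvk and Lss, whose stretches are not shown. The stretches before 3 enzyme genes are shown in the same way, Mvk, Mvd and Hmgcs1. Hmgcs1 is shown because it alone among the matched members held a sterol regulatory element core, TCACNCCAC, also in capitals.
Mvk (chr5:114444119-114444268, plus strand): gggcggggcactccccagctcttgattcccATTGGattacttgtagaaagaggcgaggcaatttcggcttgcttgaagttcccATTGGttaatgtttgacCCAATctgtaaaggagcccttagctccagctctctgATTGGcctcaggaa
Mvd (chr8:122443423-122443572, minus strand): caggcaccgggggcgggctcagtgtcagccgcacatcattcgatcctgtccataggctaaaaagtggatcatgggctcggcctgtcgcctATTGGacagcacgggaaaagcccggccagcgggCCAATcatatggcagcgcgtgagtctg
Hmgcs1 (chr13:119690201-119690350, plus strand): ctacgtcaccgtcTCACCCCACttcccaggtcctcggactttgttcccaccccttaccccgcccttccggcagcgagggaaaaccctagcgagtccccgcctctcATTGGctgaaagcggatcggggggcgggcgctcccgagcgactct
RefSeq promoter windows, from 250 bases before to 50 after a start, were found for 24 of the 30 members, 30 windows in all. The NF-Y box, a partner motif of SREBP sites, was in windows of 22 of these 24 members, and in 73.3% of member windows and 37.4% of all 32851 windows. The E-box was in windows of 5 members (Hsd17b7, Sc5d, Dhcr7, Scap and Insig1), 20% of member windows and 7.15% of all. The sterol regulatory element core was in 1 member window, Hmgcs1, which is 3.33% of member windows, and in 1.24% of all windows. Only the letters TCACNCCAC were searched, and members without a window were not searched. A member not listed here may therefore still hold such an element. None of these motifs overlapped another where they are printed here.

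None of the 6 tested genes of uptake, transfer and esterification passed the threshold in a diet comparison in edgeR. At an unadjusted p under 0.05, Stard4 was higher at 5% oil against control, lower at 1% oil against control and higher in 5% than in 1% livers. Stard4, which carries cholesterol between membranes in the cytosol, was read at 44.4, 94.1, 91.2 and 63.2 CPM in controls. It was 52.1, 28.1, 49.1 and 58.5 CPM in 1% livers, and 140, 82.5, 80.9 and 156 CPM in 5% livers. All 5% livers lay above all 1% livers and overlapped the controls. Its log2 fold change was 0.65 ± 0.29 at 5% against control (edgeR adjusted p = 0.330) and 1.30 ± 0.30 between the doses (edgeR adjusted p = 0.0519). DESeq2 called the difference between the doses, as did edgeR without N980, N979 or N975. Npc1 and Npc2, which bring sterol out of the lysosome, averaged 110 ± 23.1 and 77.7 ± 8.54 CPM at 5% oil, against 94.0 ± 15.6 and 81.1 ± 30.7 CPM in controls. These are gene totals, and retained-intron transcripts held 64.2% of the Npc1 reads and 37.3% of the Npc2 reads. Protein-coding Npc1 lay between 37.2 and 66.3 CPM in 5% livers and between 20.4 and 63.9 CPM in controls. Soat1 and Soat2, which make cholesteryl esters, averaged 3.49 ± 0.82 and 39.1 ± 12.1 CPM at 5% oil, against 3.77 ± 1.32 and 35.4 ± 7.95 CPM in controls. Mylip, a ubiquitin ligase that marks lipoprotein receptors for breakdown, lay at 2.88 and 3.46 CPM in 5% females, 9.84 and 4.34 CPM in 5% males and between 4.73 and 9.97 CPM in controls.

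Both 5% females were below both 5% males in 17 of the 19 enzymes, as in 24.5% of all genes. The same order held for 3 enzymes at 1% oil, where 27.3% of all genes showed it, and for 0 among controls, where 19.7% did. Hmgcs1 averaged 103 CPM in 5% females and 349 CPM in 5% males, against 238 CPM in control females and 281 CPM in control males. Within females, 5% against control gave a median of -0.93 over the enzymes with all 19 below 0, and within males a median of 0.47 with 4 below 0. At an unadjusted p under 0.05, 11 members were lower in 5% than in control females, where 7.16% of all genes were, and 1 in males (Insig2), where 3.39% were. Insig1 (-2.14 ± 0.36, edgeR adjusted p = 0.0131) and Insig2 (-2.501 ± 0.45, edgeR adjusted p = 0.0182) passed in females, where 0.992% of all genes were called lower. In males the values were -0.62 ± 0.34 for Insig1 and -1.48 ± 0.43 for Insig2 (edgeR adjusted p = 0.939 and 0.386).

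The test of the difference between the sexes called no member and no other gene in edgeR, and DESeq2 and limma voom called 0 members. For the response to 5% oil, all 19 enzymes lay below 0, that is lower in females relative to males, with a median of -1.49. At an unadjusted p under 0.05, 8 members were below 0, where 2.58% of all genes were: Acat2, Hmgcs1, Fdft1, Tm7sf2, Msmo1, Hsd17b7, Insig1 and Mylip. For the response to 1% oil the median was -0.56 and 1 member, Insig1, had an unadjusted p under 0.05 and lay below 0, where 1.79% of all genes did. With 2 livers per sex and diet, each female control mean averages N979 and N980.

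**Figure D4:**
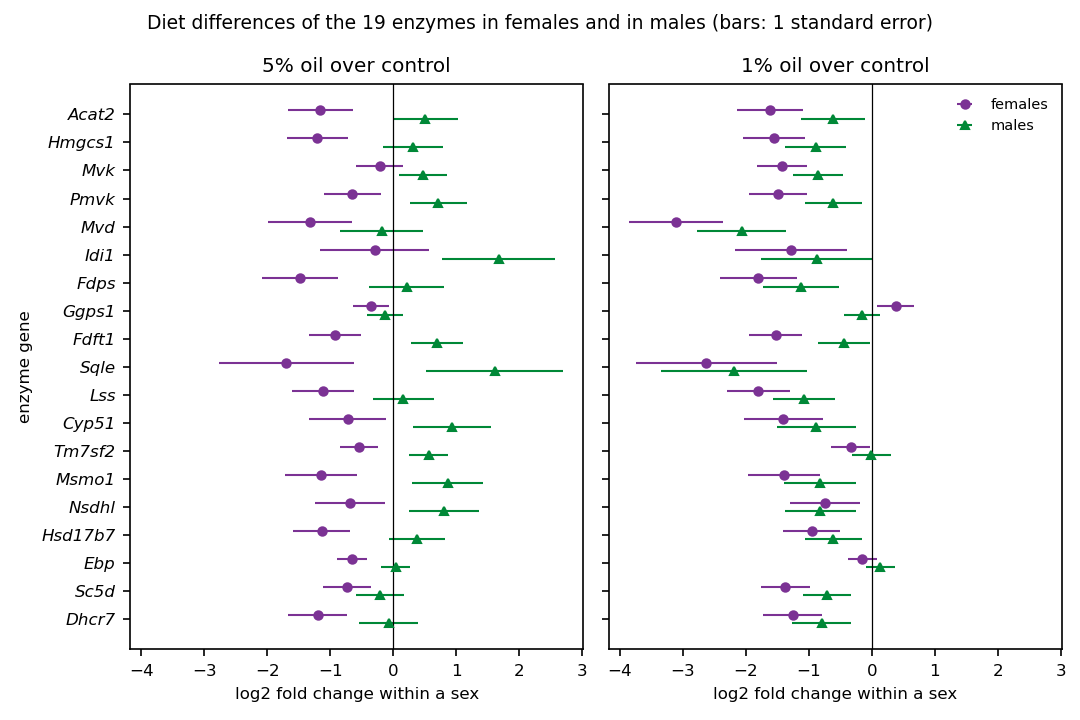
Log2 fold changes of the 19 enzymes within females (circles) and within males (triangles) for 5% against control and 1% against control, with bars of 1 standard error. At 5% oil all female values lie below 0 and 15 of 19 male values above it. At 1% oil both sexes lie below 0 for most enzymes.

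Within the sexes the 1% comparison gave 16 members lower at an unadjusted p under 0.05 in females, where 4.37% of all genes were, and 2 in males (Mvd and Insig1), where 3.24% were. Of 19 enzymes 18 lay below 0 in each sex, with medians of -1.41 in females and -0.82 in males. Between the doses, 13 members were higher in 5% than in 1% males at that level, where 4.48% of all genes were, and 3 in females, where 8.11% were. Insig2 passed in females as lower at 5% oil (-2.19 ± 0.44, edgeR adjusted p = 0.0453), where 0.507% of all genes were called lower. Across diets, Insig2 was also lower in females than in males (-1.10 ± 0.28, edgeR adjusted p = 0.0313). It was the only member called, where 5.34% of all genes were called lower in females. At an unadjusted p under 0.05, 3 members were lower in females (14.8% of all genes) and 3 were higher (13.9% of all genes). The call of Insig2 was lost without N972, N979, N967 or N988, and without N980 11 members were called lower, where 10.3% of all genes were.

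Other genes of the pathway were counted in 4 lists of 45 genes in all. At 5% oil against control 1 of 45 passed, where 1.19% of all genes passed as higher: Nceh1, a hydrolase of neutral cholesteryl esters. It averaged 33.5 CPM at 5% oil, against 16.7 CPM in controls, and its log2 fold change was 1.02 ± 0.22 (edgeR adjusted p = 0.0280). In 5% against 1% livers 1 of 45 passed, where 0.861% of all genes passed as higher: Osbp, an oxysterol-binding protein in the same list of sterol uptake, ester hydrolysis and transfer. It was higher by 0.95 ± 0.20 (edgeR adjusted p = 0.0390), at 85.1 against 44.4 CPM. No values with a liver left out are given for Nceh1 or Osbp. All genes called then ranged from 143 to 497 at 5% oil against control and from 9 to 605 between the doses. No other pathway gene passed in a diet comparison in edgeR. Por, the reductase that feeds electrons to Cyp51 and Sqle, averaged 86.1 CPM in controls, 232 CPM at 1% oil and 169 CPM at 5% oil, with log2 fold changes against control of 1.47 ± 0.29 at 1% and 1.14 ± 0.29 at 5% (edgeR adjusted p = 0.0564 and 0.0573). Among the genes of SREBP processing, the ligase gene Rnf145 was at 0.94 ± 0.28 at 5% oil against control (edgeR adjusted p = 0.0966). The median log2 fold change over the 45 genes against control was -0.13 at 1% oil and 0.03 at 5% oil. The lists differed at 1% oil. In the list that holds Por, of other SREBP2-linked genes, 9 of 11 lay below 0 and 2 above, with a median of -0.46. At an unadjusted p under 0.05 in edgeR, 6 of them were lower (6.55% of all genes) and 1, Por, was higher (4.52%). Acly was at -2.69 ± 0.63 (edgeR adjusted p = 0.138), averaging 171 CPM at 1% oil and 1097 CPM in controls, whose lowest liver was at 194 CPM.

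Retained-intron transcripts made up a share of the reads of some members that differed between livers. Over all 30 members that share was between 3.10% and 13.0% in controls, with the 13.0% in N979, between 6.88% and 16.1% in 1% livers and between 3.47% and 12.2% in 5% livers. Over all genes it was between 2.02% and 5.19% in controls, between 2.37% and 5.12% in 1% livers and between 2.03% and 4.84% in 5% livers. Its part in the differences between diets was not tested beyond the recount that follows. In Lss it was 83.5% of reads in N979, 43.2% in N980, 78.8% in N984 and 39.1% in N976, and in Ebp 51.3% in N979 and 3.20% in N967. Npc1 had the highest share over all livers, 64.2%, and ranged from 30.4% in N967 to 87.4% in N983. Npc2 ranged from 26.5% in N987 to 58.7% in N979. Counting protein-coding transcripts alone, a choice made after the data were seen, 12 enzymes in place of 13 were lower at 1% oil at an unadjusted p under 0.05, where 6.51% of all genes were, and the median enzyme change was -1.02. With that counting Insig1 at 5% oil was at -1.44 (edgeR adjusted p = 0.0544) and Mvk between the doses at 1.24 (edgeR adjusted p = 0.0684), both past the threshold no longer. Protein-coding Lss was at 6.58 CPM in control N979, below 1% livers N983 (8.60 CPM), N971 (16.2 CPM) and N972 (19.2 CPM). In 5% liver N988 protein-coding Lss was at 11.1 CPM and Npc2 at 38.1 CPM, below 1% liver N972 (19.2 and 42.0 CPM). Acat2 has a near-identical neighbouring gene, Fdft1, Cyp51, Ggps1, Mvd and Npc1 overlap other annotated genes, and the use of strand in counting is not stated, so the values of these members are uncertain.

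The authors' deposited table of 261 genes, whose contrast is not named in the file, holds 2 of the members. Insig1 has a log2 fold change of -1.39 and an adjusted p of 0.00813 in the authors' deposited table. Insig2 has -1.04 and 0.0627 in the authors' deposited table. The pathway genes Por (1.47) and Nceh1 (1.02) are also listed in the authors' deposited table.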

How the data were processed

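Per the labels' protocols, RNA of 12 mouse livers was made into stranded mRNA libraries. The deposited gene table holds estimated counts, and the submitters' processing notes name kallisto, edgeR, limma (versions not given in the sources used here) and the build GRCm39. Per the file headers a deposited transcript table holds estimated counts, and the deposited CPM table holds 11339 genes. The authors' deposited table of 261 genes gives log2 fold changes, p-values and adjusted p-values; its 12 columns of values per library were not used. Symbols came from a reference table (48845 IDs matched, 553 did not).

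The deposited estimated counts, rounded to integers, were fitted in R 4.3.3 with edgeR 4.0.16 (filterByExpr, TMM factors, robust quasi-likelihood fit, diet and sex as terms, all 12 livers; biological coefficient of variation 0.266). A fit with 6 groups of diet and sex gave values within a sex. Adjusted p-values are Benjamini-Hochberg values over the genes tested, 2-sided. The error given with a log2 fold change is a standard error worked back from the F statistic of its edgeR test, and intervals from counts would cover counting error only. Alternatives used DESeq2 1.42.0, limma 3.58.1 and other scalings, filters, terms and livers left out. All members are named; values per liver are given for members past the threshold and for the 5 of smallest p in each diet comparison; Sqle and Mylip were added after their values were seen. Members and lists were chosen with earlier results of these data known. Of 138 list symbols 1 matched no gene. Promoter sequences are from a RefSeq table of build GRCm38.p6, while the counts are on GRCm39, so only the printed stretches have coordinates, on GRCm38.p6. The design text speaks of more samples per diet; only these 12 libraries were analysed.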

Additional observations from a re-analysis of the deposited data

Results flagged for a closer look

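Among 87 sets of 4 livers (29 members, 3 diets) 5 held a liver far from the other 3, and all 5 were control female N980. Chance marks about 1 in 20 such sets. Pmvk was at 92.5 CPM in N980, against 33.9 to 36.2 CPM in the other controls. Fdft1 was at 219 CPM, against 76.7 to 97.3 CPM in the other controls. Sqle was at 169 CPM, against 8.70 to 23.8 CPM in the other controls. Scap was at 134 CPM, against 67.9 to 69.6 CPM in the other controls. Npc2 was at 127 CPM, against 64.7 to 66.8 CPM in the other controls. The summed hepatocyte markers were also highest in this liver, at 172654 CPM, against at most 119611 CPM in any other, and Kupffer cell markers were at 778 CPM, against at most 510.5 CPM in any other. Of the hepatocyte sum in N980, Alb alone held 146145 CPM, so that sum mostly follows 1 gene. The part of these in the levels of the members was not tested.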

How the results depend on the processing

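Of 37 member values followed through 26 other fits each, 2 changed sign. Mvd at 5% oil against control lay between -1.03 and 0.063 with one liver left out, above 0 without N980, and Ggps1 at 1% oil against control lay between -0.022 and 0.27, below 0 without N983. The other member values are not in this count. Without N980, Tm7sf2 and Ebp at 1% oil against control also changed sign, to 0.15 and 0.11. At 5% oil against control, 12 enzymes lay below 0 with all livers and 4 without N980. No paired analysis was possible because no replicate name is shared between diets. With one liver left out in turn, members called ranged from 1 to 2 at 5% against control, 0 to 4 at 1% against control, 0 to 7 at 5% against 1%, and 0 to 11 for female against male; genes called ranged from 143 to 497, 13 to 176 and 9 to 605 in the diet comparisons. For 5% against control, genes called were 340, but 1011 with no filter on low counts, 749 with DESeq2, 202 with the 8 libraries compared, 107 with no sex term and 47 without both control females. Members called there were 2, but 5 with no filter, 1 with the 8 libraries, the noncoding marker share as a term or protein-coding transcripts alone, and 0 with no sex term or without both control females. For 1% against control, genes called were 31, but 649 with no filter, 50 with at least 50 reads in 4 libraries, 277 with DESeq2, 54 and 53 on the deposited CPM with pseudocounts of 0.5 and 2, 54 with the 8 libraries, 10 with no sex term and 74 with the noncoding term. Members called there were 0, but 17 with no filter, 6 with DESeq2, 2 and 1 on the deposited CPM and 1 (Mvd) without both control females. For 5% against 1%, genes called were 184, but 1276 with no filter, 707 with DESeq2, 281 and 298 on the deposited CPM, 303 with the 8 libraries, 8 with no sex term, 469 with the noncoding term, 402 without both control females and 84 with protein-coding transcripts alone. Members called there were 1, but 2 with RLE or upper quartile factors or at least 50 reads in 4 libraries, 16 with no filter, 5 with DESeq2 or the 8 libraries, 4 on the deposited CPM, 3 with the noncoding term, 7 without both control females and 0 with no sex term or protein-coding transcripts alone. Female against male gave 1 member, but 3 with DESeq2 and 2 with limma voom. The deposited CPM moved the median of all genes at 5% oil against control to 0.17, and called 340 genes higher and 118 lower there (pseudocount 0.5), against 164 higher and 176 lower in the counts. limma voom called Insig2 in place of Mvk between the doses. The cause of these shifts was not tested. The fits without both control females and with protein-coding transcripts were chosen after seeing the data. Depth limits Mvk, Mylip and Soat1, with 821, 830.5 and 463 reads over all livers. In single livers it also limits Mvd, with 17 reads in N984 and 54 in N979, and Sqle, with 28 reads in N972 and 37 in N984.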
